A study of Mus musculus with 23 samples.

Results

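Mouse 2-cell embryos that had received siRNAs against Mlx were compared with 2-cell embryos that had received siRNAs against Etv5, without the control siRNA as an intermediate. The comparison took the 3 siMlx and the 2 siEtv5 2-cell RNA-seq libraries, 5 of the 23 libraries of the series. Pools of several siRNAs per gene were injected into B6D2F1 oocytes at the germinal vesicle stage, so the knockdown (KD) was present through maturation, and the oocytes were then fertilized. The labels place the 2-cell embryos at 36 h and the zygotes at 14 h after fertilization. Other times are stated in the methods, so the exact stage is uncertain. All groups shared the injection itself, and the siCtrl embryos received a control siRNA. Levels in the 3 siCtrl 2-cell libraries are given beside the compared values but entered no test between the KD groups. The methods give RNA-seq as performed several times per group, without saying which libraries share a collection of embryos, and a p-value here reflects only how far such libraries scatter, which may be technical. The RNA was primed on the poly(A) tail and the kit does not mark strand.

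MLX is a basic helix-loop-helix leucine zipper factor that binds E-box DNA together with the glucose-sensing Mondo proteins MLXIP and MLXIPL, and it belongs to the wider network around MAX and MYC. ETV5 is an ETS factor, a family that binds DNA around a GGAA core and often acts below receptor tyrosine kinase and ERK signalling. The interval studied is when the mouse embryo removes maternal RNA and begins major transcription of its own genome, with families such as Zscan4, Tdpoz and Usp17-like genes appearing transiently at the 2-cell stage.

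The siRNA targets were examined first, in the FPKM as deposited (fragments per kilobase of transcript, scaled to library depth). Mlx stood at 0.836, 2.26 and 4.05 FPKM in siMlx replicates 1, 2 and 3, against 4.26 and 4.45 FPKM in siEtv5 replicates 1 and 2, with 2.42, 4.42 and 3.74 FPKM in siCtrl. The third siMlx library thus had a listed Mlx value within the siCtrl range, so it is named here by its label only, "the library labelled siMlx replicate 3". Its value rested on the last exon, 1099 bases long, which overlaps the end of Psmc3ip on the opposite strand. Because the kit does not mark strand, this value cannot show whether Mlx was lowered in that library. Exons 2 and 3 held coverage in siMlx replicates 1 and 2 and were listed at 0 in the other 6 libraries. The Mlx difference gave p = 0.2 in an exact two-sided permutation test, which is the smallest p that 3 against 2 libraries allow. Etv5 was 16.8, 29.9 and 52.4 FPKM in siMlx, against 8.98 and 5.55 FPKM in siEtv5 and 49.3, 43.7 and 44.6 FPKM in siCtrl. The siEtv5 libraries averaged 15.8% of the siCtrl mean, and siMlx averaged 72.0% of it (exact two-sided permutation p = 0.2 for siMlx against siEtv5, n = 3 and 2). In zygotes, at 14 h, Mlx was 0.54, 0 and 0.55 rescaled FPKM in siMlx, against 3.96, 3.68 and 2.72 in siEtv5, so all siMlx zygote libraries lay below. Etv5 was 2.58, 3.06 and 1.27 rescaled FPKM in siMlx zygotes, against 0.075, 0 and 0 in siEtv5 zygotes. In 2-cell embryos Etv5 was lowest in siEtv5 but also low in siMlx replicate 1.

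**Figure D1:**
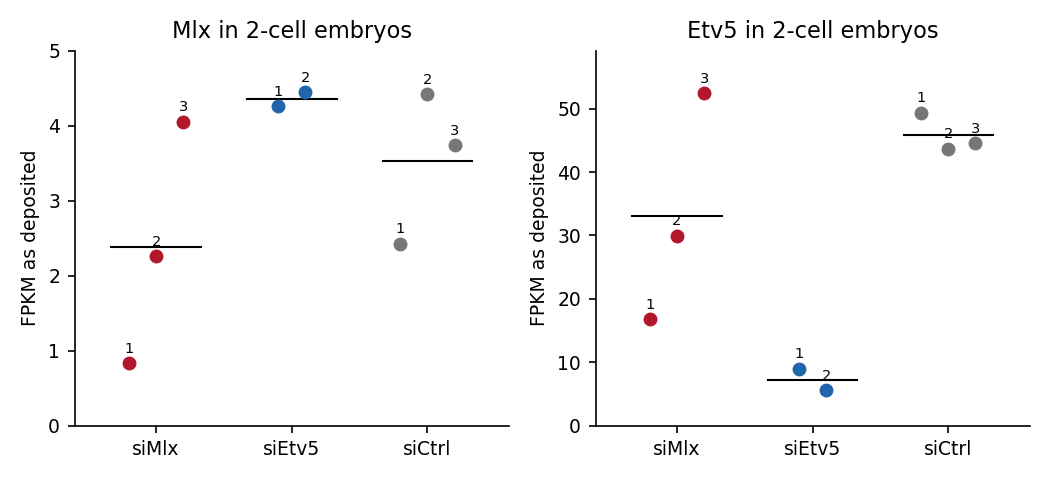
Mlx (left) and Etv5 (right) FPKM as deposited in siMlx, siEtv5 and siCtrl 2-cell libraries; each point is a library, numbered by replicate, and the line is the group mean. Mlx in the library labelled siMlx replicate 3 (4.05 FPKM) lies within the siCtrl range, and both siEtv5 libraries (8.98 and 5.55 FPKM) lie below all others for Etv5.

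The siMlx libraries held 404 to 741 Mb of aligned bases, against 792 and 811 Mb in siEtv5 and 727 to 967 Mb in siCtrl, and they detected 8904 to 10251 genes at 1 FPKM or more, against 11135 and 11096 in siEtv5. Replicate 1 of siMlx, the shallowest, stood apart: its log2 levels correlated at 0.85 to 0.89 (Pearson's r across 10592 genes) with the other siMlx libraries and at 0.79 to 0.80 with siEtv5 (genes are not independent replicates), and its 100 most abundant genes took 31.2% of its FPKM, against 24.0 and 24.7% in siEtv5. FPKM depended mainly on long exons in all libraries. The values below are FPKM rescaled by the median ratio between libraries unless stated, with fold changes on the log2(FPKM + 1) scale, siMlx minus siEtv5.

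Of 10592 genes tested with limma, 3 were called (0.0283%), meaning a more than 2-fold difference with an adjusted p under 0.05. Of these, 1 was higher in siMlx (0.00944%) and 2 were lower (0.0189%). At an unadjusted p under 0.05, 799 genes lay higher in siMlx and 1092 lower (7.54 and 10.3%), and the libraries of the groups did not overlap for 1931 genes that were higher and 2592 that were lower (18.2 and 24.5%, together 42.7%). The median log2 difference over all genes was -0.10. Replicate 1 was the most extreme siMlx library for 80.7% of the 799 genes and 69.8% of the 1092 genes. Without it, 10 genes were called higher and 40 lower by limma (0.0918 and 0.367%; 9.48 and 11.6% lay higher and lower at an unadjusted p under 0.05), and all 3 genes of the full comparison remained. Without the library labelled siMlx replicate 3, no gene was called, although 2793 genes had an unadjusted p under 0.05 (12.9% of all genes tested higher and 13.5% lower). Without siMlx replicate 2, 1 gene was called, lower in siMlx (0.00937%) and none of the 3, and 4.07 and 7.56% of genes lay higher and lower at an unadjusted p under 0.05. Without siEtv5 replicate 1 no gene was called (2.23 and 4.2% higher and lower at that p), and without siEtv5 replicate 2 none was (1.81 and 3.69%). Genes that lay higher or lower are therefore given below with their values and unadjusted p, and the text says where a call held. The siCtrl mean was nearer to siEtv5 than to siMlx for 69.7% of the 799 genes and for 60.5% of the 1092 genes.

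The called genes had different patterns across the control embryos. Gm5039, which RefSeq lists as a transcribed pseudogene (mm9 chr12:89558566-89560206), stood at 4.78, 8.23 and 10.6 FPKM in siMlx, against 184 and 178 FPKM in siEtv5 and 21.9, 15.4 and 28.6 FPKM in siCtrl. It fell by 4.42 on the log2 scale in siMlx relative to siEtv5 (SE 0.38, limma adjusted p = 0.043), and siEtv5 was the group far from the controls. Gpx2, a glutathione peroxidase (chr12:77893322-77896541), was at 0, 0 and 0.31 FPKM in siMlx, against 21.7 and 21.8 FPKM in siEtv5, and at 0.70, 0 and 0 FPKM in siCtrl (limma adjusted p = 0.046). Both of its exons showed coverage in siEtv5, 21.9 and 19.1 FPKM over the first and 21.5 and 23.4 FPKM over the second. Gpx2 was listed at 0 in all 6 zygote libraries of siMlx and siEtv5.

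Mir17hg, the host RNA of the miR-17-92 cluster (chr14:115443612-115445950), was the single gene called higher. It stood at 20.5, 30.0 and 40.3 FPKM in siMlx and was listed at 0 in both siEtv5 libraries (limma adjusted p = 0.043). In siCtrl it was 20.3 FPKM in replicate 1 and listed at 0 in replicates 2 and 3, so the control libraries spanned both groups. No fold is given against a group listed at 0. The host RNA carries miRNAs of 4 seed families, and they are shown because a change of the host concerns all of them together. The mature miRNAs themselves were not measured. The sequences are from RefSeq (GRCm38.p6, chromosome 14), with the seed, bases 2 to 8, in capitals. Each pair of miR-17 and miR-20a and of miR-19a and miR-19b shares a seed, while miR-18a and miR-92a have their own.
mmu-miR-17-5p: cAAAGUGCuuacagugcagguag
mmu-miR-20a-5p: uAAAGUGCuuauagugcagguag
mmu-miR-18a-5p: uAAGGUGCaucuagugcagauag
mmu-miR-19a-3p: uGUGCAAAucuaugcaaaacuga
mmu-miR-19b-3p: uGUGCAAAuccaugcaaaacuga
mmu-miR-92a-3p: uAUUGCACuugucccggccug

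The families expressed around the 2-cell stage formed the most one-sided gene group. Of 74 listed genes 56 were found in the files and 48 were tested; all 48 had a negative log2 difference, 31 lay lower in siMlx at an unadjusted p under 0.05, none lay higher, and 1 was called (all genes: 10.3% lower, 7.54% higher). The median was -1.77, beside -0.10 over all genes. For 42 of the 48, every siMlx library lay below both siEtv5 libraries (24.5% of all genes). The separation came from both sides of the control embryos: both siEtv5 libraries were above all 3 siCtrl libraries for 36 of the 48 genes, and all 3 siMlx libraries were below all siCtrl libraries for 19. Without siMlx replicate 1 the count was 33 of 48 (11.6% of all genes lower) and without the library labelled siMlx replicate 3 it was 41 (13.5%). It was 29 without siMlx replicate 2 (7.56%), 25 without siEtv5 replicate 1 (4.2%) and 26 of 47 without siEtv5 replicate 2 (3.69%).

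All 6 Zscan4 genes, which encode zinc finger and SCAN domain proteins of the 2-cell embryo, lay lower in siMlx. Their summed level was 50.9, 102 and 137 FPKM in siMlx, against 546 and 601 FPKM in siEtv5, and 260, 246 and 336 FPKM in siCtrl. Zscan4c stood at 12, 23.3 and 33.7 FPKM in siMlx, against 150 and 178 FPKM in siEtv5 (log2 difference -2.89, SE 0.45, limma adjusted p = 0.10). Zscan4e was at 1.75, 7.30 and 3.29 FPKM in siMlx, against 37.4 and 35.9 FPKM in siEtv5, and at 0.84 to 3.70 FPKM in siCtrl, so both siEtv5 libraries were far above the controls and siMlx replicate 2 was also above them. Near-identical copies in this family may have exchanged reads.

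Gm5039 lies in a group of gene models on chromosome 12, between 88855266 (the start of Gm8300) and 89560206 (the end of Gm5039) in mm9. Gm2016 stood at 56.4, 55.7 and 95.3 FPKM in siMlx, against 585 and 719 FPKM in siEtv5, and Gm5662 at 86.7, 90.2 and 108 FPKM in siMlx, against 769 and 880 FPKM in siEtv5. BB287469, named in addition to the list, was at 46.8, 30.9 and 64.4 FPKM in siMlx, against 412 and 460 FPKM in siEtv5. For each of these the siCtrl mean was nearer to siMlx than to siEtv5, and single siCtrl libraries had, for example, 100, 44.2 and 126 FPKM for BB287469. The adjusted p-values from limma were 0.050 for Gm2022 and Gm5662 and 0.061 for Gm2016 and BB287469, just outside the threshold. In the longest exons of these 6 models, 26 to 82.0% of 50-base stretches also occurred in another model of the group or in Tcl1b1 or Tcl1b2, so the levels of single members are uncertain.

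Tcl1b1 and Tcl1b2, members of the Tcl1 oncogene family, had other control levels, and both were already abundant in zygotes (Tcl1b2 was among the genes that decreased to the 2-cell stage in siCtrl). Tcl1b1 stood at 246, 331 and 490.1 FPKM in siMlx, against 1930.5 and 2008 FPKM in siEtv5, with 1209.6, 1189 and 1550.1 FPKM in siCtrl. Tcl1b2 was at 99.8, 142 and 165 FPKM in siMlx, against 619 and 667 FPKM in siEtv5, and at 377, 424 and 484 FPKM in siCtrl. Their log2 differences were -2.52 (SE 0.40, limma adjusted p = 0.11) and -2.27 (SE 0.34, limma adjusted p = 0.10). Tdpoz3, a TRAF and POZ domain gene, was likewise at 9.09, 20.9 and 17.7 FPKM in siMlx, against 116 and 110.4 FPKM in siEtv5, and at 99.6, 56.8 and 110.2 FPKM in siCtrl. For these genes siMlx, not siEtv5, was the group farther from the controls. The Usp17-like group was more variable, with 156, 222 and 461 FPKM summed in siMlx, against 631 and 623 FPKM in siEtv5, and 298, 238 and 563 FPKM in siCtrl. The Prame group had 151, 311 and 394 FPKM in siMlx, against 569 and 681 FPKM in siEtv5, and 361, 375 and 413 FPKM in siCtrl. For both, siMlx overlapped siCtrl, and the siEtv5 libraries lay above all siCtrl libraries.

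Promoters of members that lay low together are shown from RefSeq (GRCm38.p6), 250 bases before to 50 after the annotated start. The Tcl1b pair is printed because both genes differed alike; capitals mark the longest identical run of 56 bases, which begins 197 bases before the start in Tcl1b1 and 222 before it in Tcl1b2. Zscan4c is printed with its only match to the 3 motifs searched, a TATAAA that begins 54 bases before the start. The searches were for CACGTG (an E-box), CCGGAA (an ETS core) and TATAAA on both strands; neither Tcl1b promoter held any of them.
Tcl1b1, chr12:105159454-105159753, plus strand: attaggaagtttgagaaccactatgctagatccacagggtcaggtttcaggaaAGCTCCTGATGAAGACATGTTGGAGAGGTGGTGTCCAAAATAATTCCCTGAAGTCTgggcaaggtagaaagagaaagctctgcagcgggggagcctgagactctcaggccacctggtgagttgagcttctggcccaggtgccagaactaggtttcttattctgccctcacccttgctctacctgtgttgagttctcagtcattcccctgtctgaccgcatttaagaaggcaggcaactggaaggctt
Tcl1b2, chr12:105146769-105147068, plus strand: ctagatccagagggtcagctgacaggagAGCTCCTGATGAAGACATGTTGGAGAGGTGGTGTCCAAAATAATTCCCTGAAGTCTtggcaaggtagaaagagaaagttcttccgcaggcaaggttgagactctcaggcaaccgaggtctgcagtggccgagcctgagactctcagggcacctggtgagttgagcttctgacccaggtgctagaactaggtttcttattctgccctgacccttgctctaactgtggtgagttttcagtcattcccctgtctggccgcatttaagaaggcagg
Zscan4c, chr7:11005495-11005794, plus strand: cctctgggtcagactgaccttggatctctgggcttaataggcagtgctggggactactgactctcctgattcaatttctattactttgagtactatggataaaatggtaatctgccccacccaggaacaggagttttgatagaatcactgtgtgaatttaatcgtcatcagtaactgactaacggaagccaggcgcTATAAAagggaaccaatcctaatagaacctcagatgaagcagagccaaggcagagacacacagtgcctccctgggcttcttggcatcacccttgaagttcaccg

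**Figure D2:**
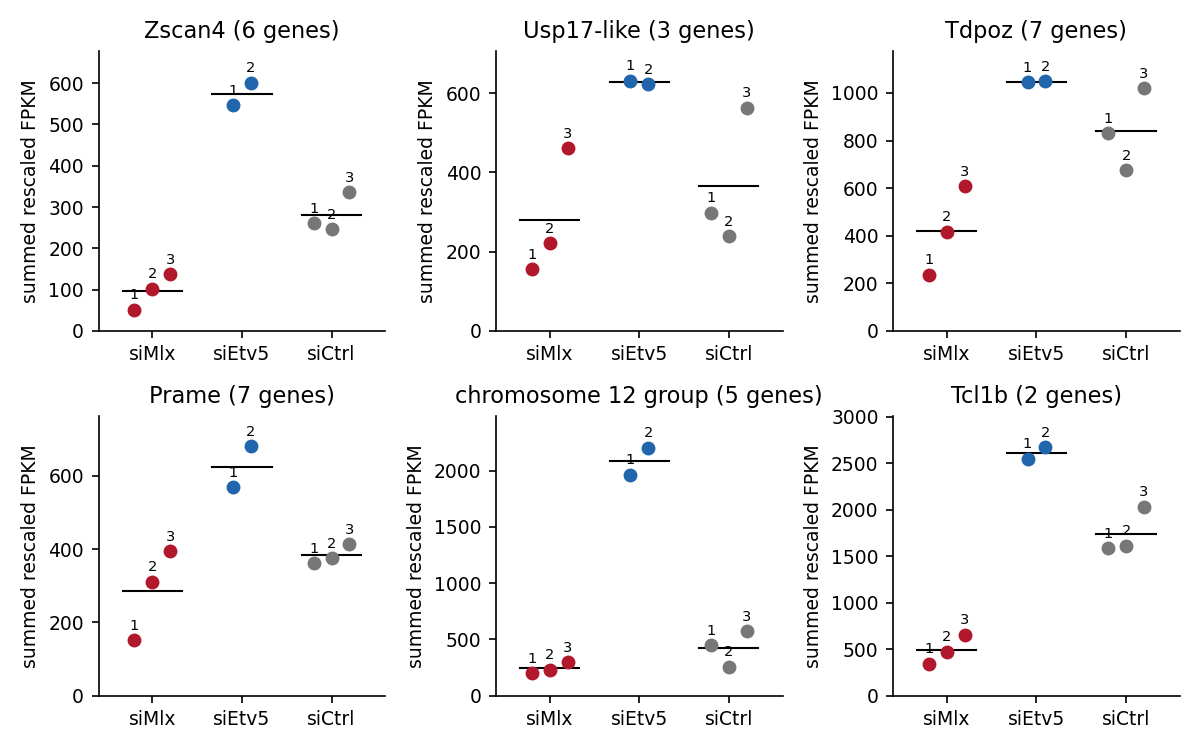
Summed rescaled FPKM (linear axis from 0) of the tested genes of 6 groups in siMlx, siEtv5 and siCtrl 2-cell libraries; points are libraries numbered by replicate and lines are group means. Both siEtv5 libraries lie above all siMlx libraries in each panel, and for the chromosome 12 group the siCtrl libraries (256 to 571 FPKM) lie near siMlx (201 to 296 FPKM).

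Of the genes of the oocyte and of maternal-effect proteins, 51 of 54 found were tested, 20 lay lower in siMlx at an unadjusted p under 0.05 and 1 lay higher (all genes: 10.3 and 7.54%), and none was called (median -0.92). Oosp1, an oocyte secreted protein, stood at 54.6, 68.8 and 59.3 FPKM in siMlx, against 256 and 256 FPKM in siEtv5, with 186, 156 and 138 FPKM in siCtrl (log2 difference -2.06, SE 0.29, limma adjusted p = 0.093). Tcl1, located with the Tcl1b genes, was at 257, 382 and 542 FPKM in siMlx, against 1789 and 1705.5 FPKM in siEtv5. The counted genes also included Spin1, at 101, 170 and 217 FPKM in siMlx, against 483 and 553 FPKM in siEtv5, and Btg4, an adaptor of maternal RNA deadenylation, at 64.3, 157 and 188 FPKM in siMlx, against 318 and 346 FPKM in siEtv5. Nlrp14 was at 5.16, 7.77 and 15 FPKM in siMlx, against 24.4 and 22.1 FPKM in siEtv5, and Ooep, of the subcortical maternal complex, at 1.99, 4.22 and 5.01 FPKM in siMlx, against 15.4 and 10.9 FPKM in siEtv5. Of the 51, 42 had a negative difference and 9 a positive one. Khdc3, of the same complex as Ooep, was on the positive side, at 127, 74.0 and 29.9 FPKM in siMlx, against 28.2 and 16.1 FPKM in siEtv5. The count of lower genes depended on single libraries: of 51 it was 21 without siMlx replicate 1 (all genes: 11.6%), 13 without siMlx replicate 2 (7.56%), 25 without the library labelled siMlx replicate 3 (13.5%), and 6 without siEtv5 replicate 1 (4.2%) or siEtv5 replicate 2 (3.69%).

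Genes of the ribosome lay on the other side. Of 80 cytosolic ribosomal protein genes, all tested, 21 lay higher in siMlx at an unadjusted p under 0.05 and none lower (all genes: 7.54% higher), and none was called; the median was 0.61 and 66 of the 80 differences were positive. The count of higher genes was 32 without siMlx replicate 1 (all genes: 9.48%), 10 without siMlx replicate 2 (4.07%), 25 without the library labelled siMlx replicate 3 (12.9%), 8 without siEtv5 replicate 1 (2.23%) and 4 without siEtv5 replicate 2 (1.81%), and with the median over exons 6 of 44 lay higher, while the list's median stayed between 0.49 and 0.68. The per-library median of the list was 73.0, 78.0 and 74.4 FPKM in siMlx, against 55.3 and 54.9 FPKM in siEtv5, and 59.6, 63.4 and 62.1 FPKM in siCtrl. On this rescaled measure the siMlx libraries were close to each other and above all 5 others. Rescaling divided siMlx replicates 1, 2 and 3 by 0.718, 1.01 and 1.09, siEtv5 by 1.13 and 1.12, and siCtrl by 1.10 to 1.11. The position of siMlx replicate 1 therefore rests on this scaling. Rpl11 stood at 48.8, 45.1 and 30.3 FPKM in siMlx, against 11.1 and 10.9 FPKM in siEtv5, and Rpl29 at 153, 157 and 209 FPKM in siMlx, against 68.2 and 81.0 FPKM in siEtv5. These genes are short, and the 1149 tested genes with transcripts under 1 kb had a median log2 difference of 0.20, against -0.18 for the 2621 over 4 kb; the part of length in the list was not tested.

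With all 5 libraries, further lists held members that lay higher at an unadjusted p under 0.05 and none that lay lower (all genes: 7.54% higher), 4 of them being ribosome biogenesis (12 of 49, median 0.27), splicing factors (8 of 52, median 0.39), heat shock and chaperone genes (7 of 36, median 0.42) and histone variants and their chaperones (5 of 24, median 0.40). Without siMlx replicate 2 these counts were 5, 5, 2 and 2 (all genes: 4.07%), without siEtv5 replicate 1 they were 2, 4, 3 and 1 (2.23%), and without siEtv5 replicate 2 they were 2, 0, 1 and 0 (1.81%). Splicing factors had 15 higher without the library labelled siMlx replicate 3 (12.9%), and heat shock genes 11. Members on the lower side appeared without siMlx replicate 1 (1 heat shock gene and 1 histone variant), without siMlx replicate 2 (1 splicing factor) and without the library labelled siMlx replicate 3 (3 histone variants or chaperones). Ebna1bp2, a nucleolar protein, stood at 145, 119.6 and 103 FPKM in siMlx, against 55.3 and 53.6 FPKM in siEtv5. Bag3, a co-chaperone of HSP70, was at 71.1, 65.7 and 48.9 FPKM in siMlx, against 24.4 and 20.8 FPKM in siEtv5, and in siCtrl at 50.9 to 57.0 FPKM, so siEtv5 was the lower group. Snrpa1, a U2 snRNP protein, was at 329.9, 151 and 139 FPKM in siMlx, against 57.2 and 57.0 FPKM in siEtv5. In all 3 examples siMlx replicate 1 was the highest library. In the list of the NuRD complex and histone deacetylases 3 of 17 lay higher and none lower (median 0.48; 1 to 5 higher with 1 library left out), among them Rbbp7, a histone-binding subunit, at 273, 224 and 245 FPKM in siMlx, against 139 and 146 FPKM in siEtv5. Genes of oxidative phosphorylation (8 higher and 2 lower of 75) and of the proteasome (4 higher and 1 lower of 37) had counts nearer to the share over all genes.

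**Figure D3:**
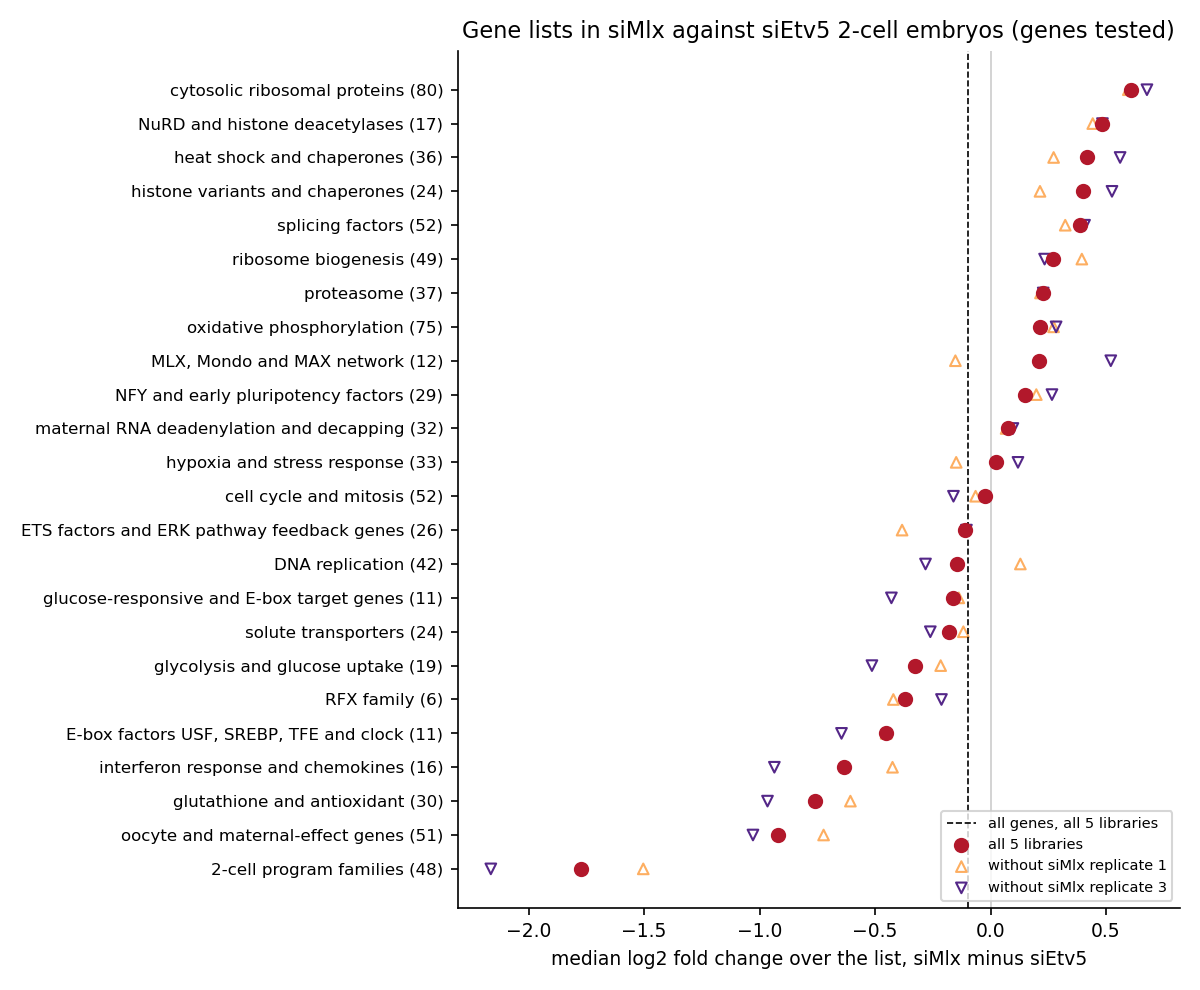
Median log2 fold change, siMlx minus siEtv5, of each gene list in 2-cell embryos (number of genes tested in brackets), over all 5 libraries (filled) and without siMlx replicate 1 or the library labelled siMlx replicate 3 (open); the dashed line is the median of all genes (-0.10). The 2-cell families lie lowest (-1.77) and the cytosolic ribosomal proteins highest (0.61).

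Partners of MLX and genes with E-box regulation lay on both sides. In the MLX, Mondo and MAX network 1 of 12 tested genes lay higher at an unadjusted p under 0.05 and none lower (all genes: 7.54 and 10.3%), with a median of 0.21. Without siMlx replicate 1 there was 1 on each side (median -0.15). Without the library labelled siMlx replicate 3, whose listed Mlx value lay within the siCtrl range, there were 2 on each side (median 0.52). The gene that lay higher with all libraries was Myc, at 15.9, 16.9 and 17.4 FPKM in siMlx, against 7.73 and 5.76 FPKM in siEtv5 and 32.5, 13.0 and 15.1 FPKM in siCtrl. Mlxip was at 38.5, 21.9 and 15.7 FPKM in siMlx, against 18.1 and 19 FPKM in siEtv5. Among 11 glucose-responsive and E-box target genes 1 lay higher and 2 lower. Pfkfb3, an enzyme that stimulates glycolysis, was the higher one, at 11.1, 12.9 and 11.7 FPKM in siMlx, against 5.74 and 4.0 FPKM in siEtv5, and Klf10 was at 0, 0.80 and 2.09 FPKM in siMlx, against 8.12 and 9.0 FPKM in siEtv5. Bhlhe40, an E-box repressor from a list of 11 E-box factors in which 2 lay higher and 2 lower, was at 0, 1.46 and 1.09 FPKM in siMlx, against 5.25 and 5.68 FPKM in siEtv5. Txnip, the standard readout of Mondo activity, stood at 7.32, 18.9 and 24.4 FPKM in siMlx, against 25.3 and 23.0 FPKM in siEtv5 (log2 difference -0.64, SE 0.51, limma adjusted p = 0.51). In glycolysis and glucose uptake 5 of 19 lay lower and 1 higher (all genes: 10.3 and 7.54%). With 1 library left out 2 to 5 lay lower (all genes: 3.69 to 13.5%). Ldha, lactate dehydrogenase A, was at 0.93, 2.5 and 6.11 FPKM in siMlx, against 20.2 and 12.5 FPKM in siEtv5. Slc2a1, a glucose transporter, was at 0.69, 0.72 and 1.70 FPKM in siMlx, against 4.24 and 5.94 FPKM in siEtv5.

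ETS factors and feedback genes of the ERK pathway were likewise mixed, with 4 of 26 lower and 1 higher (unadjusted p under 0.05). The shares over all genes were 10.3% lower and 7.54% higher, and the list's median was -0.11. With 1 library left out 2 to 7 lay lower, where 3.69 to 13.5% of all genes did. The gene on the higher side was Etv5 itself. Spry2, an ERK feedback inhibitor, stood at 18.8, 17.3 and 19.3 FPKM in siMlx, against 51.6 and 64.6 FPKM in siEtv5, with 20.6, 26 and 20.1 FPKM in siCtrl (log2 difference -1.60, SE 0.29, limma adjusted p = 0.13). The siEtv5 libraries were thus the ones above the controls for Spry2. Dusp6, an ERK phosphatase, was at 4.13, 1.28 and 2.51 FPKM in siMlx, against 5.49 and 9.25 FPKM in siEtv5 and 11.9 to 17.5 FPKM in siCtrl, so both KD groups lay below the controls. Elf3, an epithelial ETS factor, was at 3.23, 0.86 and 1.83 FPKM in siMlx, against 10.7 and 16.3 FPKM in siEtv5 and 14.8 to 18.0 FPKM in siCtrl, where siMlx was the low group. Of the other transcription factors considered in the study, Usf2 was at 3.29, 1.93 and 2.28 FPKM in siMlx, against 0.57 and 0.53 FPKM in siEtv5. Klf7 was at 2.89, 3.70 and 9.92 FPKM in siMlx, against 11.9 and 12.8 FPKM in siEtv5. Rfx1 was at 4.01, 2.80 and 1.69 FPKM in siMlx, against 3.89 and 4.41 FPKM in siEtv5. In siCtrl Rfx1 was at 9.73, 7.81 and 7.28 FPKM, so both KD groups lay below the controls. Nfya and Etv1 overlapped between the KD groups, as did Rfx1.

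Of 30 antioxidant genes tested, 9 lay lower and 1 higher at an unadjusted p under 0.05 (all genes: 10.3 and 7.54%), 1 was called lower (Gpx2; all genes: 0.0189%), and the median was -0.76. Gstm1, a glutathione S-transferase, stood at 1.57, 0.73 and 1.25 FPKM in siMlx, against 21.7 and 22.3 FPKM in siEtv5, and at 14.8, 12.6 and 15.5 FPKM in siCtrl (log2 difference -3.42, SE 0.38, limma adjusted p = 0.061). Txnrd1, thioredoxin reductase, was at 1.63, 5.17 and 1.24 FPKM in siMlx, against 18.9 and 13.8 FPKM in siEtv5, and Prdx2, a peroxiredoxin, at 44.6, 67.7 and 115 FPKM in siMlx, against 237 and 286 FPKM in siEtv5. In siCtrl all 3 of these genes lay above siMlx. Nqo1, a quinone reductase, was at 0.67, 0.31 and 2.40 FPKM in siMlx, against 10.2 and 6.86 FPKM in siEtv5. The member on the higher side was Prdx5, at 139, 76.7 and 49.6 FPKM in siMlx, against 35.6 and 36.8 FPKM in siEtv5. Stress genes went both ways: Ddit3, the transcription factor CHOP, was at 4.51, 6.24 and 6.55 FPKM in siMlx, against 52.3 and 38.0 FPKM in siEtv5 (limma adjusted p = 0.079), while Ddit4, an inhibitor of mTORC1, was at 81.6, 34.8 and 23.9 FPKM in siMlx, against 6.32 and 9.49 FPKM in siEtv5.

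Among abundant genes with every library above 0, the highest differences were in Hand1, Mrps15, Hnrnpab, Mir3077, Pdcd5, Fam212a, Sap30, Klhl15, Gatad2a and Ash2l. Hand1, a helix-loop-helix factor of trophoblast and heart, stood at 149, 42.5 and 15.9 FPKM in siMlx, against 1.18 and 1.27 FPKM in siEtv5, and at 0, 2.59 and 0 FPKM in siCtrl. Sap30, a subunit of the SIN3 deacetylase complex, was at 4816, 1703 and 891 FPKM in siMlx, against 287 and 247 FPKM in siEtv5, and at 602, 431 and 372 FPKM in siCtrl. Fam212a was at 1747, 789.7 and 428 FPKM in siMlx, against 130.4 and 91.8 FPKM in siEtv5. None of the 10 was called over all 5 libraries (limma adjusted p from 0.079 to 0.19), and replicate 1 was the highest siMlx library in 8 of them. Without it Mrps15, Gatad2a and Hnrnpab were called by limma, together with genes such as Bex1, at 303, 621 and 498.9 FPKM in siMlx, against 139 and 109 FPKM in siEtv5.

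Levels per exon separated these genes. Sap30 differed over both of its long exons, with 7281, 2586 and 1267 FPKM over the first in siMlx, against 408 and 336 FPKM in siEtv5, and Fam212a and Zscan4c also differed over both of theirs. Gatad2a differed in other ways in different libraries. Its last exon, 2906 bases, was at 4.16, 114 and 136 FPKM in siMlx, against 7.50 and 2.84 FPKM in siEtv5, and at 130.2, 4.21 and 7.82 FPKM in siCtrl, while its first exon was at 679, 189 and 158 FPKM in siMlx, against 69.4 and 49.6 FPKM in siEtv5. The last exon of Hnrnpab was at 791, 461 and 378 FPKM in siMlx, against 46.0 and 0.0051 FPKM in siEtv5, and near 0 in siCtrl replicates 2 and 3 but at 306 FPKM in replicate 1. Ash2l differed in its last exon, at 35.8, 35.6 and 23.3 FPKM in siMlx, against 0.49 and 0.20 FPKM in siEtv5, while its other long exon overlapped between the groups. Of 517 genes with an unadjusted p under 0.01, 242 had at least 2 exons of 200 bases or more at 5 FPKM or more in a library, and in 163 of these every such exon separated the groups in the direction of the gene. These genes were selected for a difference between the same libraries, and their FPKM depended mainly on the same long exons. The count is therefore only a description, and no such share was taken over all genes.

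**Figure D4:**
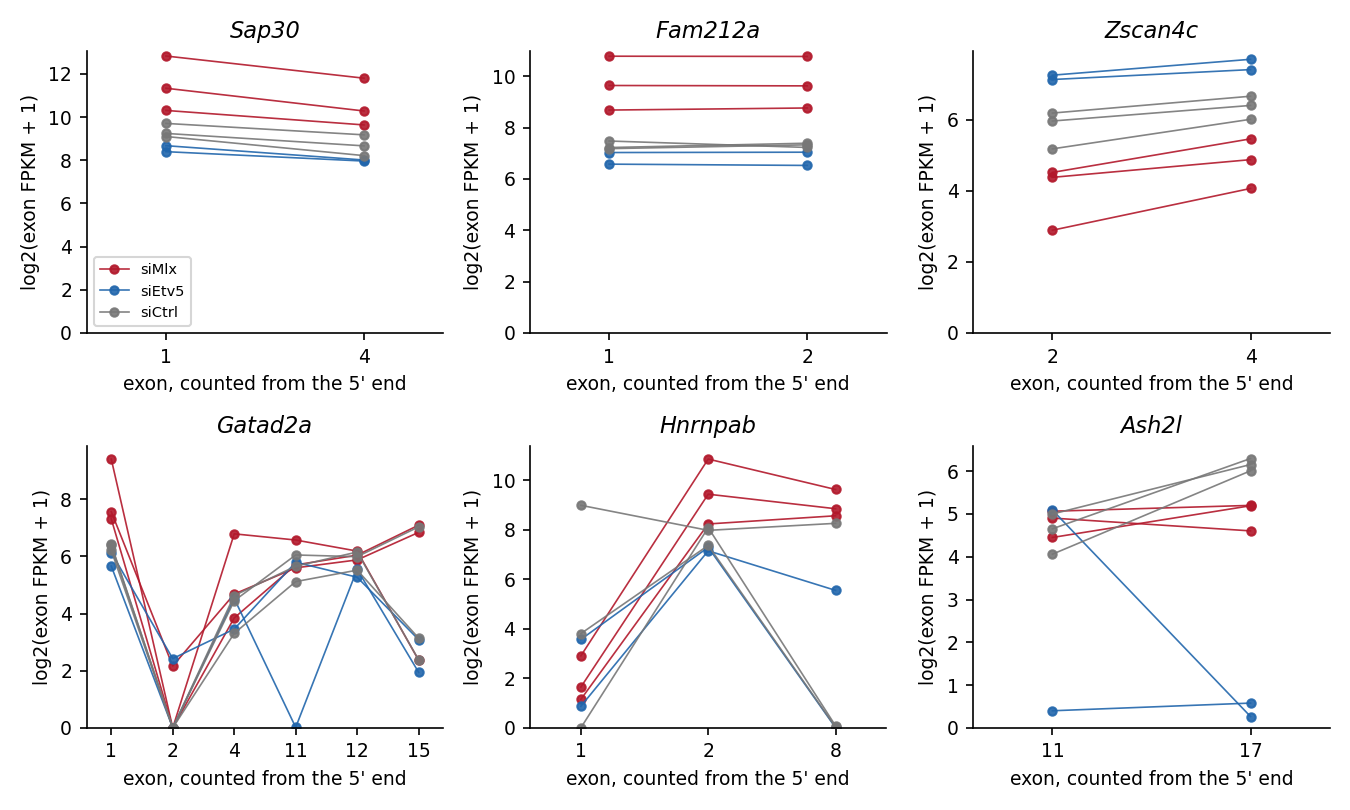
Level of each exon of at least 200 bases, as log2(exon FPKM + 1), against its number from the 5′ end for 6 genes; each line is a 2-cell library of siMlx, siEtv5 or siCtrl. In Sap30, Fam212a and Zscan4c the groups separate over both exons, whereas in Gatad2a, Hnrnpab and Ash2l single exons are near 0 in some libraries.

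The lowest differences by the same rule were in Gm5039, Gstm1, Cd24a, Gm2016, BB287469, Stard5, Gm5662, Zscan4e, Psrc1 and Gm2022. Psrc1, a mitotic spindle protein, was at 0.57, 0.22 and 1.02 FPKM in siMlx, against 13.1 and 10.5 FPKM in siEtv5, and at 8.31 to 8.62 FPKM in siCtrl. Cd24a, a cell surface glycoprotein, was at 1.55, 18.9 and 22.1 FPKM in siMlx, against 88.2 and 117 FPKM in siEtv5. Of the 40 genes called lower by limma without siMlx replicate 1, 16 belonged to the 2-cell families, and 2 alpha-tubulins were among the others: Tuba1c at 6.92, 13.9 and 15 FPKM in siMlx, against 93.5 and 67.6 FPKM in siEtv5, and Tuba1b at 8.04, 18.1 and 18.2 FPKM in siMlx, against 80.8 and 64.2 FPKM in siEtv5. These genes were chosen after their values were seen.

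Whether the groups also differed before the 2-cell stage was examined with the zygotes, 3 siMlx and 3 siEtv5 libraries, with zygote FPKM rescaled over the 11 libraries of both stages. The difference of the siMlx minus siEtv5 difference between 2-cell embryos and zygotes passed limma's adjusted p of 0.05 for 38 genes with a positive and 186 with a negative value (0.356 and 1.74% of 10671 genes tested, 2.1% in all), and in the zygotes alone 7 genes passed (0.0656%). The 2-cell families mostly had opposite signs in zygotes and 2-cell embryos. Of 49 tested in this fit, 42 had a positive difference in zygotes and a negative one in 2-cell embryos. Over all genes 2941 of 9734 had that pattern. Of the 49, 22 passed the test between the stages with a negative value (1.74% of all genes). The median of the families in zygotes was 0.79, beside 0.014 over all genes. Zscan4c was at 14.8, 11.7 and 15.6 FPKM in siMlx zygotes, against 4.04, 5.92 and 4.14 FPKM in siEtv5 zygotes, the reverse of the 2-cell order, and Gm5662 at 37.1, 30.9 and 17.3 FPKM in siMlx zygotes, against 4.74, 20.9 and 3.88 FPKM in siEtv5 zygotes. Genes of the oocyte and of maternal-effect proteins had a zygote median of 1.00, and 12 of 52 passed with a negative value. Tcl1 stood at 9828, 7096 and 12872.5 FPKM in siMlx zygotes, against 4991, 6989 and 4059 FPKM in siEtv5 zygotes. In the zygotes alone, limma's adjusted p was 0.19 for Zscan4c, 0.22 for Gm5662 and 0.38 for Tcl1, so none of these passed. For Gm5662, siEtv5 zygote replicate 2 lay within the siMlx zygote range.

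Genes with a positive value of this test included Fam212a, which was at 0, 0.50 and 0.72 FPKM in siMlx zygotes, against 0.81, 0 and 2.08 FPKM in siEtv5 zygotes, and Sap30, which was abundant in both groups of zygotes, at 2813, 3972 and 2130 FPKM in siMlx, against 2756, 3962 and 4178 FPKM in siEtv5. H1fx, a linker histone, was at 15.4, 13.0 and 4.34 FPKM in siMlx zygotes, against 20.6, 36.2 and 38.9 FPKM in siEtv5 zygotes, and in 2-cell embryos at 26.5, 14.8 and 6.75 FPKM in siMlx, against 2.79 and 1.65 FPKM in siEtv5. Leaving out a siEtv5 2-cell library reduced the 224 calls to 52 or 25, so their number depended on both of these libraries.

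**Figure D5:**
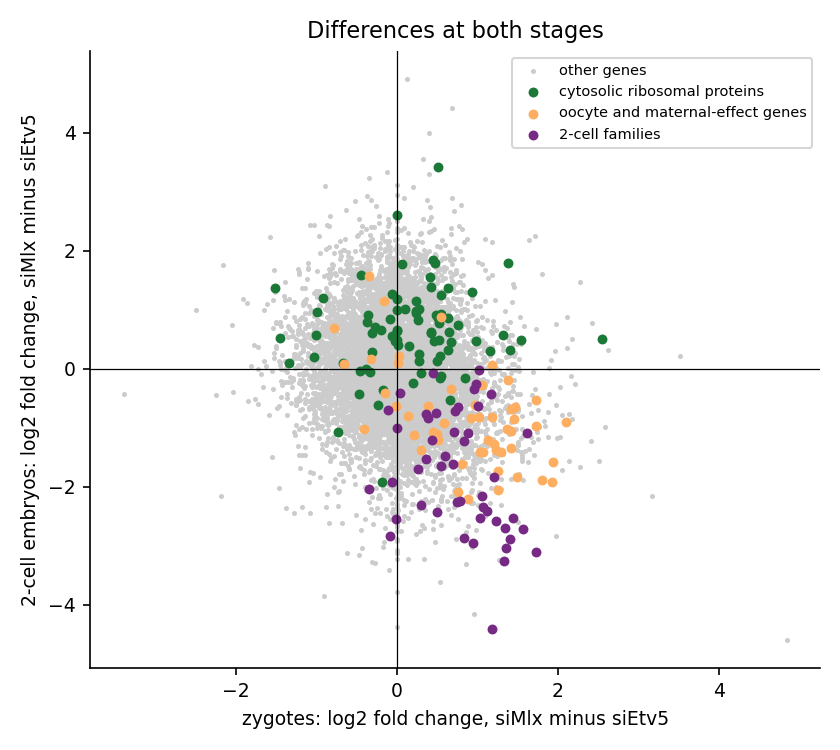
Log2 fold change, siMlx minus siEtv5, in 2-cell embryos (vertical) against zygotes (horizontal); each point is a gene, with cytosolic ribosomal protein genes in green. The 2-cell families (purple) and the oocyte and maternal-effect genes (orange) lie mostly right of 0 and below 0, with medians of 0.79 and 1.00 in zygotes and -1.77 and -0.92 in 2-cell embryos.

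Most remaining lists had members on both sides or few below an unadjusted p of 0.05 (all genes: 7.54% higher and 10.3% lower). They were hypoxia and stress (4 higher and 6 lower of 33), cell cycle (3 and 8 of 52), DNA replication (4 and 2 of 42), NFY and pluripotency factors (3 and 2 of 29), solute transporters (1 and 3 of 24), interferon response (1 and 2 of 16) and the RFX family (none of 6). Deadenylation and decapping had 1 higher and 7 lower of 32, with a median of 0.076. With 1 library left out 4 to 8 of its genes lay lower, where 3.69 to 13.5% of all genes did. Of 2557 tested genes that increased from the zygote to the 2-cell stage in siCtrl embryos, 342 lay higher in siMlx and 241 lower at an unadjusted p under 0.05 (all genes: 7.54 and 10.3%; median 0.11), and of 1060 tested genes that decreased 39 lay higher and 157 lower (median -0.38). Only the counts of the increasing genes changed order with single libraries. Without siMlx replicate 2 there were 185 higher and 194 lower (4.07 and 7.56% of all genes). Without siEtv5 replicate 1 there were 95 and 108 (2.23 and 4.2%), and without siEtv5 replicate 2 there were 68 and 118 (1.81 and 3.69%). With 1 library left out the list's median stayed positive (0.074 to 0.16). Its higher share also stayed above that of all genes, for example 7.22% against 4.07% without siMlx replicate 2. The decreasing genes had 22 higher and 110 lower without siMlx replicate 2, 14 and 67 without siEtv5 replicate 1 and 13 and 45 without siEtv5 replicate 2. Of 16 markers of 2-cell embryos 2 were listed at 0 in each siMlx, siEtv5 and siCtrl library. The 16 summed to 554, 854 and 1274 FPKM in siMlx, against 1953.5 and 2179.9 FPKM in siEtv5. In siCtrl the sums were 1266, 1063 and 1593 FPKM. A listed 0 is not absence, since 5 to 15 of 79 oxidative phosphorylation genes were also at 0 in siMlx, against 3 and 4 in siEtv5. Of 20 cumulus and granulosa markers 14 to 17 were listed at 0 in siMlx and 12 in both siEtv5 libraries. All 20 summed to 53.2, 75.0 and 103 FPKM in siMlx, against 70.7 and 84.4 FPKM in siEtv5. The 3 tested ones were Amhr2, Gja1 and Tnfaip6. Fshr, Cyp11a1 and Ptx3 were at 0 in all 5 libraries. Tnfaip6 was the member apart, at 0 to 1.53 FPKM in siMlx, against 7.19 and 12.2 FPKM in siEtv5. Of 15 sperm markers, 2 of them tested, 11 to 14 were at 0 in siMlx and 9 in both siEtv5 libraries. All 15 summed to 2.40 to 4.53 FPKM in siMlx, against 9.01 and 19.7 FPKM in siEtv5. Prm1 and Tnp2 were at 0 in all 5 libraries. Of 12 blood markers, 5 of them tested, 8 to 12 were at 0 in siMlx, against 6 and 7 in siEtv5. All 12 summed to 0 to 18.7 FPKM in siMlx, against 56.4 and 49.0 FPKM in siEtv5, mostly from Hba-a2. Ptprc was at 0 in all 5 libraries. Of 18 morula and blastocyst markers 6 or 7 were at 0 in siMlx, against 7 and 2 in siEtv5. The part of these cells in the other results was not tested.

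Promoter sequence was available for 7810 of the tested genes. CCGGAA occurred in 32.9% of these promoters (14.9% of all 32851 RefSeq promoters), in 43.2% of those of the genes that lay higher at an unadjusted p under 0.05 and in 20.8% of those that lay lower. CACGTG occurred in 12.3% (7.15% of all promoters), in 13.6% of the higher and in 10.3% of the lower genes. The median log2 difference was 0.03 for genes with CCGGAA and -0.17 without, and -0.01 with CACGTG and -0.12 without. These are descriptions of letters in the window, not of binding.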

How the data were processed

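The authors aligned reads to mm9 with STAR (2.5.2b in the submitters' notes) and ran StringTie (1.3.3b in the file headers, 1.3.4 in the notes) on RefSeq transcripts. The deposited files hold FPKM and coverage per transcript. The authors tested read counts with edgeR; those counts were not analysed here. FPKM were summed per gene (22619 genes from 29306 transcripts, 976 of them without a gene name left out), rescaled between libraries (median ratio, 7805 genes reaching 1 FPKM in all 5), filtered at a mean of 1, and compared on the log2(FPKM + 1) scale by limma 3.58.1 under R 4.3.3 (trend, Benjamini-Hochberg), for siMlx and siEtv5 libraries only; the stage difference used 11 libraries. Called genes differ more than 2-fold with adjusted p below 0.05. Aligned bases came from coverage divided by FPKM. Named genes were the called genes, the 10 highest and lowest with a mean of at least 5 FPKM, an unadjusted p under 0.01, no library at 0 and no overlap between groups, 8 factors, up to 3 per list and up to 5 each way for the stage difference; others were chosen after their values were seen. Members and lists were chosen with earlier results of these data known. Python 3.11.15, pandas 2.3.3, numpy 2.4.6, scipy 1.17.1 and matplotlib 3.10.9 were used. The fit was also run on simulated data, with the scatter of each gene capped at the median over genes. That run therefore does not cover genes with more scatter. Alternatives were another pseudocount, filter, scaling, fit or block, longer transcripts, left-out libraries and, added after seeing the data, exon-based values.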

Additional observations from a re-analysis of the deposited data

Results flagged for a closer look

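The difference between siMlx and siEtv5 was not the same in 2-cell embryos and zygotes for the following genes, by limma's test of the 2-cell minus zygote difference at an adjusted p under 0.05; each value is that difference on the log2 scale. Where a group was listed at 0, as for Mir17hg, Gpx2, Psmb3, Tagln2 and Snora30, the value depends on the pseudocount. Mir3077 and Snora30 are short entries without an exon of 200 bases, so their values are uncertain.

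Negative values were found in the chromosome 12 gene models Gm5039 (-5.57), Gm5662 (-4.82), Gm2016 (-4.57), BB287469 (-4.49), Gm2022 (-3.89) and Gm8300 (-2.91). Among other members of the 2-cell family list, of which the Tcl1b genes were already abundant in zygotes, they were -4.33 for Zscan4e, -4.27 for Zscan4c, -3.54 for Tcl1b1, -3.0 for Tcl1b2 and -2.72 for Tdpoz3. Oocyte and maternal genes had -3.30 for Oosp1, -3.09 for Tcl1, -2.84 for E330034G19Rik, -2.54 for Wee2 and -2.38 for Ooep.

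Stress and antioxidant genes had -4.20 for Gpx2, -3.58 for Ddit3, -3.23 for Gstm1 and -2.37 for Ndrg1. The remaining negative values were -5.18 for Snora30, -4.97 for Cyb5, -4.66 for 0610040F04Rik, -3.97 for Tagln2, -3.60 for Psmb3, -3.47 for Stard5, -2.90 for Tnfaip6, -2.74 for Psrc1 and -2.03 for Slc10a6.

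Positive values were 4.61 for Mir17hg, 3.94 for Mir3077, 3.77 for H1fx, 3.58 for Hnrnpab, 3.50 for Bola2, 3.33 for Gatad2a, 3.31 for Fam212a, 3.19 for Sap30, 2.25 for Usf2 and 1.91 for Npm3.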

How the results depend on the processing

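The 3 calls between siMlx and siEtv5 2-cell embryos became 1 with a pseudocount of 0.1 and with transcripts of at least 2 kb, 0 with no filter on low values, 10 on FPKM as deposited, 130 with siCtrl in the fit, 18 with all 4 groups in the fit and 5 without the mean-variance trend. A filter at 5 FPKM and voom gave 4 each, with 2 and 1 of the 3 genes among them, and the 130 and 18 calls held 2 and 1. Of the 2 alternatives added after seeing the data, genes with an exon of at least 500 bases gave 12 and the median over exons 0. Leaving out 1 library gave 0 to 50. The stage difference, with 224 calls, gave 144 with a pseudocount of 0.1, 358 with no filter, and 25 to 658 with 1 library left out. With the replicate number as a block, 1254 genes were called between the groups and 11 in the stage difference. In the fit between the groups the library labelled siMlx replicate 3 was alone in its block and did not inform the difference. Little was then left to estimate scatter from, so the 1254 calls cannot be read as a gain from pairing. Deviations of same-numbered libraries correlated at 0.02 and -0.01, with siMlx replicate 3 unpaired. The deviations of the 2 siEtv5 libraries mirror each other, so these values cannot tell whether the numbers pair the libraries. Over the named genes, 1668 of the alternative values kept direction and side of the threshold, 159 passed it in addition, 26 no longer passed it and 5 changed sign. The sign changes were in the log2 fold change of Amhr2 (-0.17 on FPKM as deposited, -0.094 with the block, and from -0.091 to 0.25 with 1 library left out), the log2 fold change of Gja1 (-0.27 with the median over exons) and the log2 fold change of Nfya (from -0.71 to 0.080 with 1 library left out, positive without siMlx replicate 1). The causes were not tested. Depth and exon length limited all values, since most exons under 200 bases were listed at 0.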
